A study of Homo sapiens with 32 samples.

Results

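The plasminogen activation system was followed through 6 of its genes: the activators PLAU (urokinase, uPA) and PLAT (tissue-type activator, tPA), the urokinase receptor PLAUR (uPAR), and the serpins SERPINE2, SERPINB2 and SERPINB5. They were selected by symbol, as protein-coding entries of the deposited count tables, and all 6 were present among 19815 protein-coding genes and 60554 annotated genes. The RNA came from cultured MCF10A, a non-tumourigenic human breast epithelial line, and from MDA-MB-231, a triple-negative breast carcinoma line. Each line was studied in normoxia (N), in hypoxia at 0.5% O2 for 24 hours (H), in normoxia with the mTOR kinase inhibitor PP242 at 2.5 µM for 3 hours (NPP), and in hypoxia with the same PP242 treatment (HPP). Cultures without PP242 had received the DMSO vehicle, according to the study's methods. The mRNA of whole lysates (total, T) and the mRNA carried by ribosomes in a sucrose gradient (polysomal, P) were sequenced from every condition, which gave 8 groups per line, 2 libraries per group and 32 libraries in all. The labels call the 2 libraries of a group biological replicates. MCF10A was grown with EGF, hydrocortisone, cholera toxin and insulin and MDA-MB-231 without them, so line and medium cannot be told apart in a comparison of the lines. Libraries held between 18340916 and 46032327 gene-assigned counts. Levels are given as CPM (counts of a gene relative to the library total) after TMM scaling over all 32 libraries, in the order replicate 1, replicate 2.

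Plasminogen activators are serine proteases that cut the inactive zymogen plasminogen into plasmin, a broad protease that degrades fibrin and components of the extracellular matrix. Urokinase acts mainly at the cell surface, where PLAUR, a receptor held by a lipid anchor, concentrates it, whereas the tissue-type activator acts mainly on fibrin. Serpins restrain the system by trapping the proteases, and in breast cancer urokinase is an established marker of invasive disease. Hypoxia and mTOR inhibition both lower cap-dependent protein synthesis. Polysomal RNA was sequenced beside total RNA to compare the mRNAs being translated with those present.

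The hypoxia labels were checked on 5 known hypoxia-induced genes. The summed level of CA9, NDRG1, ADM, ANKRD37 and VEGFA in MCF10A total RNA was 187 to 196 CPM in N and 2353 to 2889 CPM in H. CA9, a carbonic anhydrase, rose in H total RNA by 5.95 ± 0.48 on the log2 scale in MCF10A (SE, adjusted p = 0.000161) and by 5.46 ± 0.67 in MDA-MB-231 (adjusted p = 0.000445). The line labels were checked on marker lists. The MCF10A libraries carried the basal keratin KRT5 at 1407 to 3838 CPM, against 0 to 0.238 CPM in MDA-MB-231. However, 2 of the 7 genes of the basal epithelial list stayed under 1 CPM in every MCF10A library, namely CDH1 (E-cadherin, at most 0.424 CPM) and TP63 (at most 0.265 CPM), while the mesenchymal filament gene VIM stood at 1832 to 11298 CPM. These values go against the line label in part, so MCF10A stands here for the libraries labelled MCF10A, also in each comparison of the lines. The MDA-MB-231 libraries held VIM at 2736 to 5384 CPM. Of the 3 genes listed as absent in triple-negative carcinoma, the estrogen receptor gene ESR1 reached no more than 0.187 CPM and PGR 0.523 CPM. The third, ERBB2, was not absent, at 21.9 to 41.5 CPM, but stood below its level in MCF10A, 109.9 to 233.5 CPM. SPARC, a further gene of the mesenchymal list, went against the label. It stood at no more than 0.666 CPM in MDA-MB-231, against 101.4 to 238.1 CPM in MCF10A.

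**Figure D1:**
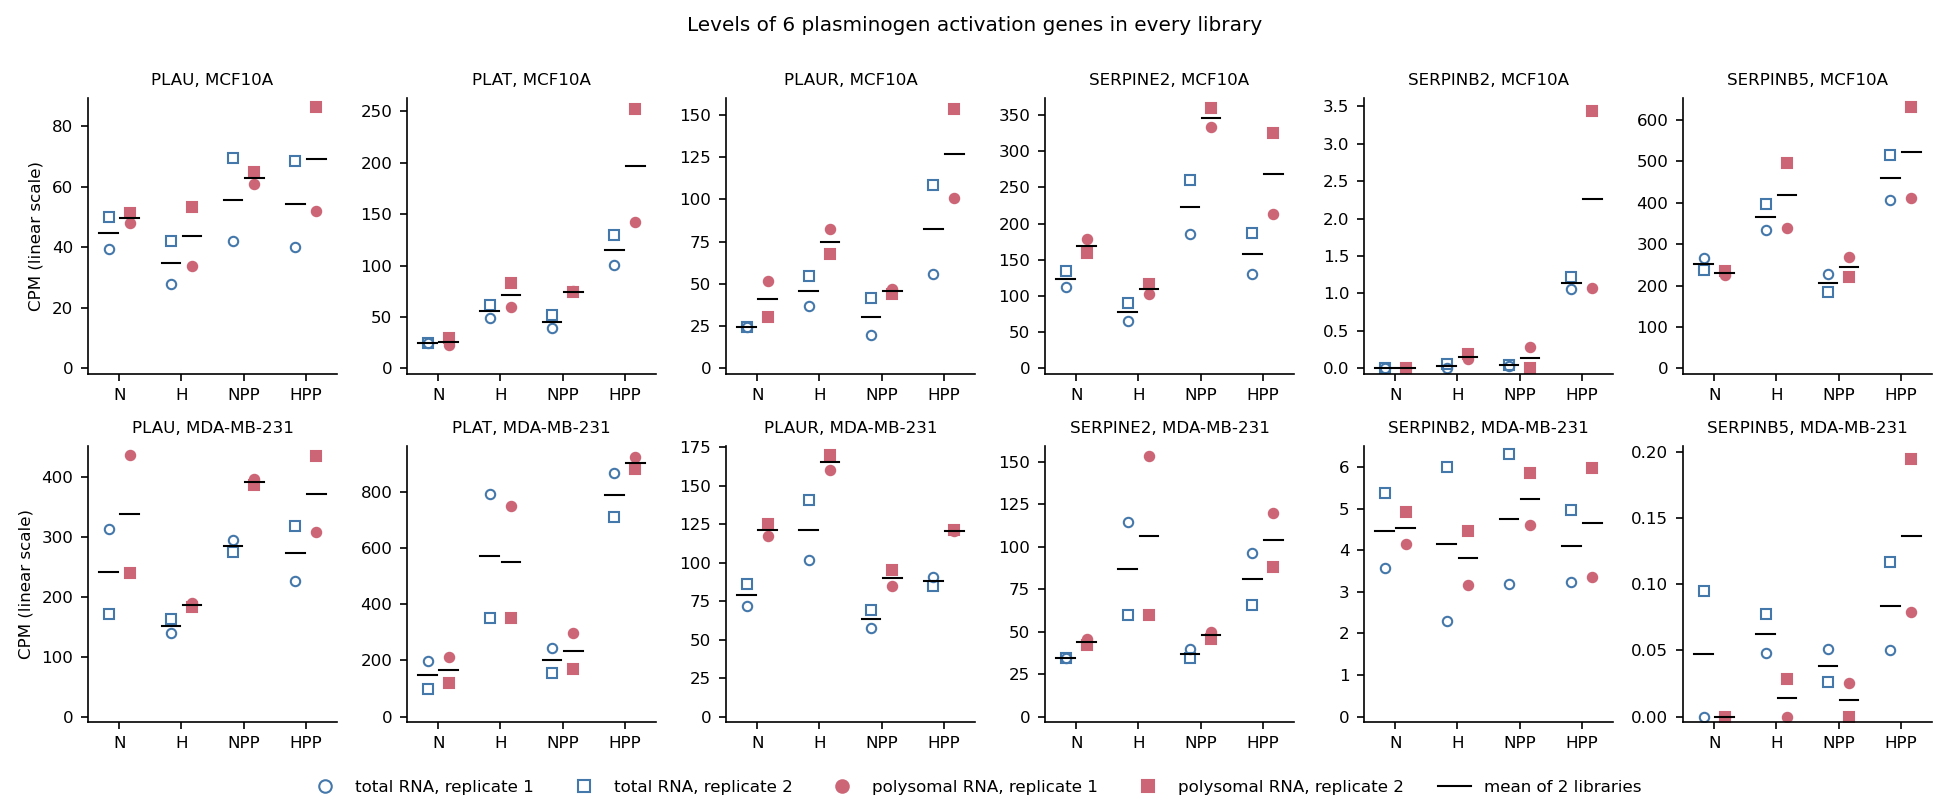
Each panel plots 1 gene in 1 line, with CPM on a linear axis against condition (N, H, NPP, HPP), where open blue symbols are total RNA, filled red symbols polysomal RNA, circles replicate 1, squares replicate 2, and black bars the mean of the 2 libraries. PLAT was highest in HPP in the means of both lines, SERPINB2 in MCF10A left the baseline in HPP, and SERPINB5 in MDA-MB-231 never passed 0.195 CPM.

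In normoxia the lines held different sets of these genes. MDA-MB-231 had higher PLAU, PLAT, PLAUR and SERPINB2, and MCF10A had higher SERPINE2 and SERPINB5, in both fractions. All 6 genes passed in T, where 40.7% of the 14298 genes tested passed, and all 6 passed in P, where 45.4% did. In bulk RNA, fewer cells of a type and less RNA per cell cannot be told apart. PLAU differed by 2.43 ± 0.37 on the log2 scale in T (SE, adjusted p = 2.02e-05) and by 2.76 ± 0.38 in P, and PLAT by 2.58 ± 0.45 (adjusted p = 9.00e-05) and 2.67 ± 0.45. PLAUR was higher in MDA-MB-231 by 1.68 ± 0.34 in T (adjusted p = 0.000372) and by 1.56 ± 0.34 in P. SERPINE2 showed the opposite difference, -1.84 ± 0.36 in T (adjusted p = 0.000326) and -1.94 ± 0.36 in P.

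The clade B serpins separated the lines further. SERPINB5, known as maspin and expressed by normal mammary epithelium, had 18183 counts over the 2 normoxic total libraries of MCF10A and 2 counts over those of MDA-MB-231, a ratio of 6637 (95% counting interval 1837 to 54812). In polysomal RNA the counts were 16447 and 0, at least 3831-fold higher in MCF10A by the 95% counting limit. Against a floor of 3 counts over the group the fold was 4711. SERPINB2 (PAI-2), an inhibitor of both activators, had no count in the 4 normoxic MCF10A libraries. In MDA-MB-231 it had 228 counts in T and 282 in P, which over the same floor were folds of 104.1 and 109.4. By the 95% counting limit it was at least 84.0-fold higher in MDA-MB-231 in T and at least 88.4-fold higher in P. These counting limits do not include the spread between cultures. All 12 of these normoxic calls held when any 1 of the 4 libraries compared was left out.

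Divided by the median length of their coding transcripts, the normoxic total levels in MCF10A ran from SERPINB5 (198 ± 15.8 CPM per kb, SD, n = 2) through SERPINE2 (71.7 ± 9.13), PLAUR (33.0 ± 0.213) and PLAU (19.1 ± 3.10) to PLAT (10.7 ± 0.0162) and SERPINB2 (0). No neighbours in that order overlapped. In MDA-MB-231 the order was PLAUR (106.1 ± 13.4), PLAU (103.2 ± 43.1), PLAT (64.3 ± 30.9), SERPINE2 (20.1 ± 0.201), SERPINB2 (5.88 ± 1.66) and SERPINB5 (0.0375 ± 0.0530). The libraries of PLAUR and PLAU overlapped there, and so did those of PLAU and PLAT. The place of PLAUR depended on the transcript length used: with the longest coding transcript it fell to 15.2 CPM per kb in MCF10A, below PLAU at 16.8, and to 48.9 in MDA-MB-231, below PLAU at 91.0.

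**Figure D2:**
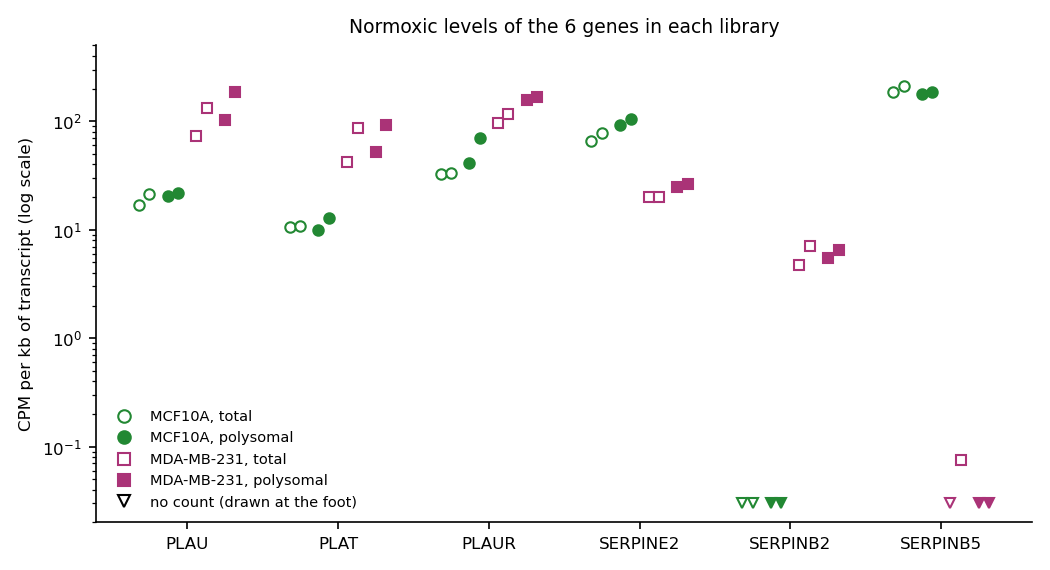
Normoxic level of each gene in CPM per kb of median coding transcript on a log axis, 1 symbol per library, where green circles are MCF10A, magenta squares MDA-MB-231, open symbols total RNA, filled symbols polysomal RNA, and triangles at the foot libraries with no count. PLAU, PLAT, PLAUR and SERPINB2 lay higher in MDA-MB-231 and SERPINE2 and SERPINB5 higher in MCF10A, with no overlap between the lines.

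PLAT rose against N in HPP in both fractions of both lines. The gene (ENSG00000104368.17, chr8:42174718-42207709, minus strand, GRCh38) encodes the activator that works on fibrin. In MCF10A total RNA its level was 24.3 and 24.4 CPM in N, 48.9 and 61.8 in H, 39.2 and 51.5 in NPP, and 100.0 and 129.8 in HPP. In MCF10A polysomal RNA the values were 22.7 and 29.0 CPM in N, 59.7 and 83.2 in H, 75.0 and 74.4 in NPP, and 142 and 252 in HPP. Every treated library lay above both N libraries of its fraction, and both HPP libraries lay above all others. In HPP the log2 change was 2.26 ± 0.29 in T (SE, 4.78-fold, adjusted p = 0.000613, edgeR's quasi-likelihood test with Benjamini-Hochberg adjustment over all genes tested) and 2.86 ± 0.29 in P (7.27-fold, adjusted p = 0.000154). Both calls held without any 1 of the 4 libraries concerned.

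The single treatments moved PLAT less in MCF10A. In polysomal RNA it rose by 1.39 ± 0.28 in H (adjusted p = 0.0320) and by 1.55 ± 0.28 in NPP (adjusted p = 0.0291). In total RNA the changes were 1.202 ± 0.28 in H (adjusted p = 0.0632) and 0.94 ± 0.28 in NPP (adjusted p = 0.214), which did not pass at 0.05. The H change passed with DESeq2 (adjusted p = 0.00575) and with only the libraries compared in the fit (adjusted p = 0.0130). It also passed with a block on the replicate number (adjusted p = 0.0264). Neither polysomal call held when any 1 of its 4 libraries was left out (replicates 1 and 2 of N P and of H P or NPP P): the adjusted p then reached 0.295 in H and 0.305 in NPP.

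In MDA-MB-231 total RNA PLAT stood at 196 and 96.4 CPM in N, 790.1 and 350.5 in H, 244 and 156 in NPP, and 867 and 709 in HPP. In polysomal RNA it stood at 211 and 118 CPM in N, 749 and 349.9 in H, 298 and 169 in NPP, and 921 and 882 in HPP. Replicate 1 was higher than replicate 2 in all 8 pairs, and H and HPP lay above N in both fractions, whereas the NPP and N libraries overlapped. PLAT rose in HPP by 2.37 ± 0.45 in T (adjusted p = 0.00434) and by 2.42 ± 0.45 in P (adjusted p = 0.00252), and in H by 1.94 ± 0.45 in T (adjusted p = 0.0497). Its change in H polysomal RNA was 1.74 ± 0.44 (adjusted p = 0.0578), and from 1.10 to 2.26 with 1 library left out. That change passed with DESeq2 (adjusted p = 0.0427), with no filter beyond 1 read and with only the libraries compared (adjusted p = 0.0277). A block on the replicate number also called it (adjusted p = 0.000527). The HPP call in T was lost without N T replicate 2 (adjusted p = 0.0607). The H call in T was lost without N T replicate 1, N T replicate 2 or H T replicate 1, with log2 changes between 1.25 and 2.51 and an adjusted p of up to 0.309. It was also lost with RLE size factors, upper-quartile scaling, all gene classes and only the libraries compared (adjusted p from 0.0521 to 0.113). It was kept with DESeq2 (adjusted p = 0.0212), with no filter beyond 1 read and with a block on the replicate number (adjusted p = 0.000163).

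PLAU, the urokinase gene (ENSG00000122861.15, chr10:73909177-73917496, plus strand, GRCh38), showed no change against N that passed. In MCF10A total RNA it was at 39.6 and 49.9 CPM in N, 27.7 and 42.1 in H, 42.0 and 69.5 in NPP, and 40.0 and 68.5 in HPP, and the libraries of every treatment overlapped those of N. In MCF10A polysomal RNA it was at 48.1 and 51.4 CPM in N, 34.0 and 53.4 in H, 60.9 and 64.9 in NPP, and 52.1 and 86.6 in HPP, with NPP and HPP above N and H overlapping it. None of its 6 log2 changes in that line exceeded 0.41 in size, with 95% intervals reaching from -1.10 to 1.16 at the widest.

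In MDA-MB-231 total RNA PLAU was at 313 and 170.5 CPM in N, 139.6 and 163 in H, 294 and 274 in NPP, and 226 and 318 in HPP. In polysomal RNA it was at 437 and 239 CPM in N, 189 and 183 in H, 396 and 386 in NPP, and 308 and 435 in HPP. Both H libraries lay below both N libraries in each fraction, with N replicate 1 well above N replicate 2, and the H change of -0.85 ± 0.29 in P did not pass (adjusted p = 0.142), though it did with DESeq2 (adjusted p = 0.0411). Between H and HPP, in which PP242 is the difference, PLAU rose by 0.96 ± 0.29 in P (adjusted p = 0.0436) and the change in T was 0.81 ± 0.29 (adjusted p = 0.136). The polysomal call was lost without any 1 of its libraries (H P and HPP P, replicates 1 and 2), with an adjusted p of up to 0.289. PLAU shares 915 exon bases with C10orf55 on the opposite strand. The library kit kept no strand, so reads of the pair cannot be told apart, and C10orf55 itself was assigned 14 to 54 counts per MCF10A library and 30 to 178 per MDA-MB-231 library.

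PLAUR, the urokinase receptor (ENSG00000011422.11, chr19:43646095-43670547, minus strand, GRCh38), rose in MCF10A under the combined treatment. Its total level in MCF10A was 24.6 and 24.4 CPM in N, 36.8 and 54.8 in H, 19.6 and 41.6 in NPP, and 55.7 and 108.6 in HPP. Its polysomal level was 51.5 and 30.5 CPM in N, 82.4 and 67.7 in H, 46.7 and 44.2 in NPP, and 100.8 and 153 in HPP. H and HPP lay above N in both fractions and NPP overlapped N. The HPP change was 1.75 ± 0.42 in T (adjusted p = 0.0160) and 1.56 ± 0.41 in P (adjusted p = 0.0199). The call in T was lost without N T replicate 1, N T replicate 2 or HPP T replicate 2 (adjusted p up to 0.156), and that in P without N P replicate 2 or HPP P replicate 2 (adjusted p up to 0.1403).

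In MDA-MB-231 no change of PLAUR against N passed. Its total level was 71.7 and 85.8 CPM in N, 101.6 and 141 in H, 57.5 and 69.2 in NPP, and 90.4 and 85.0 in HPP, and its polysomal level 117 and 125, 160.4 and 170.1, 84.5 and 95.2, and 120.4 and 121 CPM in the same order. H lay above N and NPP below N in both fractions, without overlap, and HPP overlapped N. The largest of these changes was 0.60 ± 0.17 in H total RNA (adjusted p = 0.126), which passed with DESeq2 (adjusted p = 0.0197) and without H T replicate 1 (adjusted p = 0.0309). In normoxic MDA-MB-231 the polysomal level of PLAUR exceeded its total level by 0.57 ± 0.17 (adjusted p = 0.0421), where 13.1% of 13510 genes passed. That call was lost without any 1 of the 4 normoxic libraries, replicates 1 and 2 of T and P (adjusted p up to 0.240).

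SERPINE2 (ENSG00000135919.12, chr2:223975045-224039318, minus strand, GRCh38) encodes protease nexin-1, an inhibitor of thrombin, plasmin and both activators. In MCF10A total RNA it was at 111.98 and 134 CPM in N, 65.6 and 90.5 in H, 185 and 261 in NPP, and 131 and 186 in HPP. In MCF10A polysomal RNA it was at 178 and 159 CPM in N, 103.3 and 116 in H, 333 and 359 in NPP, and 213 and 325 in HPP. Both H libraries lay below and both NPP libraries above the N libraries in each fraction, but no change against N passed: it was -0.64 ± 0.27 in T (adjusted p = 0.387) and -0.70 ± 0.27 in P (adjusted p = 0.285) in H, and 1.05 ± 0.27 in P (adjusted p = 0.0941, and 0.0226 with DESeq2) in NPP. Between H and HPP SERPINE2 rose in P by 1.30 ± 0.27 (adjusted p = 0.0165), and the change in T was 1.02 ± 0.27 (adjusted p = 0.0578, and 0.00890 with DESeq2). The polysomal call was lost without H P replicate 1, H P replicate 2 or HPP P replicate 2 (adjusted p up to 0.183).

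In MDA-MB-231 SERPINE2 rose under the combined treatment. Its total level was 34.2 and 34.7 CPM in N, 115 and 59.5 in H, 39.5 and 34.2 in NPP, and 96.3 and 65.8 in HPP. Its polysomal level was 45.7 and 42.1 CPM in N, 153 and 59.7 in H, 50.0 and 45.6 in NPP, and 119.9 and 87.9 in HPP. H and HPP lay above N in both fractions, and H replicate 1 stood apart as the highest library of each fraction. The HPP change was 1.17 ± 0.35 in T (adjusted p = 0.0419) and 1.21 ± 0.35 in P (adjusted p = 0.0262), and the H changes of 1.31 ± 0.35 in T (adjusted p = 0.1001) and 1.28 ± 0.35 in P (adjusted p = 0.0733) did not pass, although both did with DESeq2 (adjusted p = 0.00757 and 0.00975). The HPP call in T was lost without any 1 of its 4 libraries, N T and HPP T replicates 1 and 2 (adjusted p up to 0.218). That in P was lost without N P replicate 1, N P replicate 2 or HPP P replicate 1 (adjusted p up to 0.189).

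SERPINB2 (ENSG00000197632.8, chr18:63871692-63903888, plus strand, GRCh38) went from no count to a low level in MCF10A. It had no count in the 4 N libraries. In H it was at 0 and 0.0596 CPM in T and at 0.127 and 0.186 CPM in P, and in NPP at 0.0296 and 0.0477 CPM in T and at 0.280 and 0 CPM in P. In HPP it was at 1.06 and 1.21 CPM in T and at 1.08 and 3.44 CPM in P. It passed the filter on low counts in this line only through these HPP libraries. Its HPP tests are therefore not independent of that filter. Against a floor of 3 counts over the group, the 61 counts of the HPP total libraries were 27.4-fold higher than in N. The 165 counts of the HPP polysomal libraries were 55.8-fold higher. The edgeR test, which is of the fitted change and not of these floor folds, gave an adjusted p of 0.0141 in T and 0.00604 in P. By the counting limit the rise was at least 21.7-fold in T and at least 44.9-fold in P. These limits do not include the spread between cultures. In HPP P, replicate 2 held 130 of the counts and replicate 1 held 35. The call in P held without any 1 of its libraries, and that in T was lost without N T replicate 1, N T replicate 2 or HPP T replicate 2 (adjusted p up to 0.108).

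In MDA-MB-231 SERPINB2 was present throughout and showed no change against N that passed. In T it was at 3.58 and 5.37 CPM in N, 2.29 and 6.02 in H, 3.19 and 6.32 in NPP, and 3.23 and 4.98 in HPP. In P it was at 4.15 and 4.93 CPM in N, 3.16 and 4.47 in H, 4.61 and 5.87 in NPP, and 3.35 and 5.97 in HPP. All treated libraries overlapped those of N. Its log2 changes against N lay between -0.24 and 0.18, with standard errors of about 0.44 to 0.45. In the newer annotation used for positions SERPINB2 shares 547 exon bases on its own strand with a further gene model, ENSG00000289724, so its reads are uncertain to that extent.

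SERPINB5 (ENSG00000206075.13, chr18:63476958-63505085, plus strand, GRCh38), a serpin without the usual protease-trapping action, was the member with the highest CPM in MCF10A in N, H and HPP, while SERPINE2 had the higher mean in NPP. Its total level there was 266 and 237 CPM in N, 335 and 396 in H, 228 and 185 in NPP, and 405 and 515 in HPP. Its polysomal level was 225 and 234 CPM in N, 339 and 496 in H, 269.7 and 220.3 in NPP, and 412 and 631 in HPP. H and HPP lay above N in both fractions. The HPP change was 0.89 ± 0.26 in T (adjusted p = 0.0380) and 1.12 ± 0.26 in P (adjusted p = 0.0106), and the H changes were 0.56 ± 0.26 in T (adjusted p = 0.460) and 0.78 ± 0.26 in P (adjusted p = 0.199). The call in T was lost without any 1 of its 4 libraries, N T and HPP T replicates 1 and 2 (adjusted p up to 0.240), and that in P without N P replicate 1 or HPP P replicate 2 (adjusted p up to 0.110). In MDA-MB-231 SERPINB5 had between 0 and 9 counts per library and did not pass the filter on low counts.

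**Figure D3:**
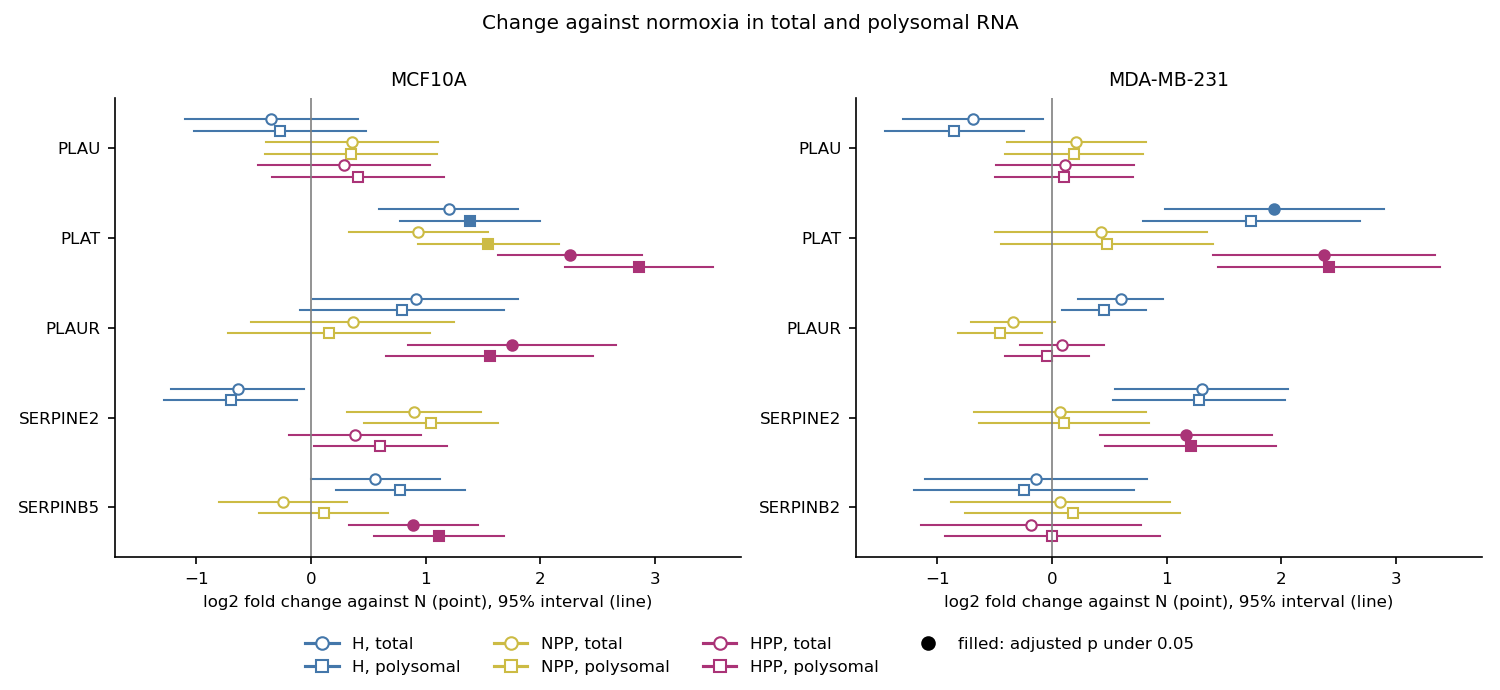
Log2 fold change against normoxia (horizontal axis) with its 95% interval for each gene, in total (circles) and polysomal RNA (squares), for H (blue), NPP (yellow) and HPP (magenta), where filled symbols have an adjusted p under 0.05. SERPINB2 in MCF10A (no normoxic count) and SERPINB5 in MDA-MB-231 (filtered) are not drawn. The filled HPP symbols are PLAT, PLAUR and SERPINB5 in MCF10A, and PLAT and SERPINE2 in MDA-MB-231.

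The calls in HPP were counted over the members. In MCF10A 4 of 6 members passed in T, all higher (PLAT, PLAUR, SERPINB2 and SERPINB5), where 14.9% of 13124 genes passed, and 4 of 6 passed in P, again all higher, where 22.2% did. In MDA-MB-231 2 of the 5 members tested passed in T (PLAT and SERPINE2, both higher), against 13.2% of 13510 genes, and 2 of 5 in P, against 19.4%. The members tested had a median HPP log2 change of 1.32 (MCF10A T), 1.34 (MCF10A P), 0.12 (MDA-MB-231 T) and 0.10 (MDA-MB-231 P), beside -0.01, -0.04, -0.05 and 0.01 over all genes. SERPINB2 passed the filter on low counts in MCF10A only through its HPP libraries. Its call and its share in the counts and medians of that line were therefore not independent of its HPP level. Replicate 2 of the MCF10A HPP culture was above replicate 1 for all 6 members in both fractions. The spread between MCF10A total replicates, as chi-square per degree of freedom, was 44.4 in N, 135 in H, 471 in NPP and 256 in HPP. ITGAV stood at 138 and 9.64 CPM in NPP T and at 145 and 37.6 CPM in HPP T. CTSL went the other way, with 144 and 198 CPM in NPP T and 177 and 260 CPM in HPP T. In NPP T, EGFR fell like ITGAV (232 and 47.1 CPM), and S100A10 (1086 and 2420 CPM) and ITGA5 (880 and 1307 CPM) rose like CTSL. The longest coding transcripts were 9905 bases for EGFR, 7039 for ITGAV, 4250 for ITGA5, 2397 for CTSL, 1610 for PLAUR and 671 for S100A10. The part of transcript length in these replicate differences, and in the MCF10A T calls, was not tested.

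In MCF10A fewer members passed under the single treatments than in HPP. In MDA-MB-231 the order of H and HPP turned with the setting: DESeq2 called 3 members in H and 2 in HPP, in T and in P alike, and with no filter beyond 1 read edgeR called 4 in H T and 3 in H P against 2 in HPP. In the fit of all groups of a line with edgeR, PLAT alone passed in H, in MCF10A P (1 of 6, 1.49% of all genes) and in MDA-MB-231 T (1 of 5, 1.27%). No member passed in H in MCF10A T (1.54% of all genes, 3 members at an unadjusted p under 0.05, and 1 called by DESeq2) or in MDA-MB-231 P (2.29%, 4 members at an unadjusted p under 0.05, and 3 called by DESeq2). In NPP, PLAT alone passed, in MCF10A P (1 of 6, 0.823%). None passed in NPP in MCF10A T (0.648%, 2 members at an unadjusted p under 0.05), MDA-MB-231 T (0.555%, 0 members) or MDA-MB-231 P (1.95%, 1 member), and DESeq2 called none in these 3 comparisons.

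The effect of PP242 within hypoxia was given by HPP against H. In MCF10A P, PLAT rose by 1.48 ± 0.28 (adjusted p = 0.0117) and SERPINE2 rose as given above, 2 of 6 members, where 6.5% of all genes passed. The PLAT call was lost without H P replicate 1 or HPP P replicate 2 (adjusted p up to 0.157). In MCF10A T no member passed (3.74%, 3 members at an unadjusted p under 0.05, and 3 called by DESeq2). In MDA-MB-231 P, PLAU was the 1 member of 5 that passed in the fit of all groups (11.5% of all genes), whereas other settings called 0 to 3 members. PLAUR differed there by -0.49 ± 0.17 (adjusted p = 0.0779), which passed with DESeq2 (adjusted p = 0.0282) and with only the libraries compared (adjusted p = 0.0378). In T none passed (3.78%, 2 members at an unadjusted p under 0.05, and 0 called by DESeq2). SERPINB2 in MCF10A P had 35 and 130 counts in HPP and 3 and 7 in H, a log2 difference of 3.799 (adjusted p = 0.0690, and 0.0360 with DESeq2) that ranged from 2.79 to 4.38 when 1 library was left out.

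Other markers moved with H and HPP. In MCF10A total RNA the basal epithelial list of 7 genes summed to 2034 to 3151 CPM in N, 4184 to 6089 CPM in H and 5045 to 9283 CPM in HPP, with KRT5 the most abundant. Of its 5 genes tested, 3 rose in HPP (KRT14, KRT17 and KRT6A), where 14.9% of all genes passed. In H 1 rose (KRT6A), where 1.54% passed. The mesenchymal list of 5 genes, with VIM the most abundant, summed to 3015 to 3611 CPM in N and 6311 to 12567 CPM in HPP, and 2 of 5 rose (CD44 and VIM), beside the same 14.9% of all genes. In polysomal RNA it summed to 3506 to 4525 CPM in N and 3462 to 3677 CPM in HPP, and none of the 5 rose, where 22.2% of all genes passed. In MDA-MB-231 total RNA the same list summed to 3927 to 4279 CPM in N and 6379 to 7170 CPM in HPP, where CD44 and VIM rose and 13.2% of all genes passed. The fibroblast list of 5 genes summed to 6.05 to 6.83 CPM in N, 18.6 to 21.5 CPM in H and 13.5 to 15.6 CPM in HPP in MCF10A total RNA, with COL1A1 the most abundant, while LUM, PDGFRA and COL3A1 stayed under 1 CPM. The part of these shifts in the members' changes was not tested.

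The bases just before the start sites of 5 members were read from RefSeq (GRCh38.p14), and those of the activator PLAT were not searched. A window of 250 bases was available for PLAUR, SERPINB2 and SERPINB5, and 2 windows each for PLAU and SERPINE2. They were searched on both strands for TGANTCA, and for ACGTG and GCGTG, the forms of the core of the hypoxia response element. TGANTCA is wider than the AP-1 element (TGAGTCA or TGACTCA), since it allows any middle letter. TGANTCA was found in the windows of PLAUR, SERPINB2 and SERPINB5 and in none of those of PLAU or SERPINE2, beside 6.57% of 35116 windows of this length over all genes. ACGTG was found in 1 SERPINE2 window, inside the letters CACGTG, which are also an E-box, beside 18.5% of all windows. GCGTG was found in the windows of PLAUR and SERPINB5 and in 1 window each of PLAU and SERPINE2, beside 32.2% of all windows. A match is a description of the letters only, and a link between the matches and the members' changes was not tested. The 3 windows that hold TGANTCA are shown 5′ to 3′ on the strand of the gene, with the TGANTCA match in capitals.
PLAUR, chr19:43670170-43670419, minus strand: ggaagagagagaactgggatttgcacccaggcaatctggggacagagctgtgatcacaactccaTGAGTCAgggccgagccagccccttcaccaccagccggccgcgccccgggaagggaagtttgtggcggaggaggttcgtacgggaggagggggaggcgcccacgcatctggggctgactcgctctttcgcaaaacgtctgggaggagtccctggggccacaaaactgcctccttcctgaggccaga
SERPINB2, chr18:63887455-63887704, plus strand: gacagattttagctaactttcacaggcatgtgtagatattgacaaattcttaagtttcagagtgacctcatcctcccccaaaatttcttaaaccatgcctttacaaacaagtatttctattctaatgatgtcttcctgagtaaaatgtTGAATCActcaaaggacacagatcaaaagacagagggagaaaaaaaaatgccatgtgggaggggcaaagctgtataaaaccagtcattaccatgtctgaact
SERPINB5, chr18:63476708-63476957, plus strand: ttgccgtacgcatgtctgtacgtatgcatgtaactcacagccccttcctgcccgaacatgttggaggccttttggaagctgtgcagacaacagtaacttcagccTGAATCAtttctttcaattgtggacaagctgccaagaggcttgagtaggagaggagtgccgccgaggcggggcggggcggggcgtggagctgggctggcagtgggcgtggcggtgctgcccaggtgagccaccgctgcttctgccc
PLAUR carries TGAGTCA, a form of the AP-1 element. SERPINB2 and SERPINB5 carry TGAATCA, which differs from that element in its middle letter.

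Translational efficiency (Te) was taken as the log2 change in P minus the log2 change in T, tested as an interaction. Here and in the comparisons of P with T in normoxia, the T and P libraries of 1 culture were treated as independent. A fit paired by culture was not run. No member passed in any condition of either line. In MCF10A no gene at all passed in H, NPP or HPP (0%, 0% and 0% of 13124 genes, with 23, 296 and 433 genes at an unadjusted p under 0.05, and 0, 92 and 127 called by DESeq2). In MDA-MB-231 0.0148%, 0.34% and 0.696% of 13510 genes passed. The largest member value was that of PLAT in MCF10A, 0.61 ± 0.39 in NPP (95% interval -0.24 to 1.46) and 0.60 ± 0.39 in HPP (-0.24 to 1.45). The narrowest intervals were those of PLAUR in MDA-MB-231, -0.15 (-0.67 to 0.37) in H and -0.13 (-0.65 to 0.39) in HPP. The widest was that of SERPINB2 in MDA-MB-231 H, -0.10 (-1.46 to 1.26). A change in Te within those limits was not detectable for that gene in this unpaired fit with 2 libraries per group. Te of SERPINB2 in MCF10A could not be estimated, since its normoxic libraries had no count, and that of SERPINB5 in MDA-MB-231 was not tested. In normoxic MCF10A no gene differed between P and T (0% of all genes, 1660 at an unadjusted p under 0.05, none of them a member, and 35 genes but no member called by DESeq2).

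**Figure D4:**
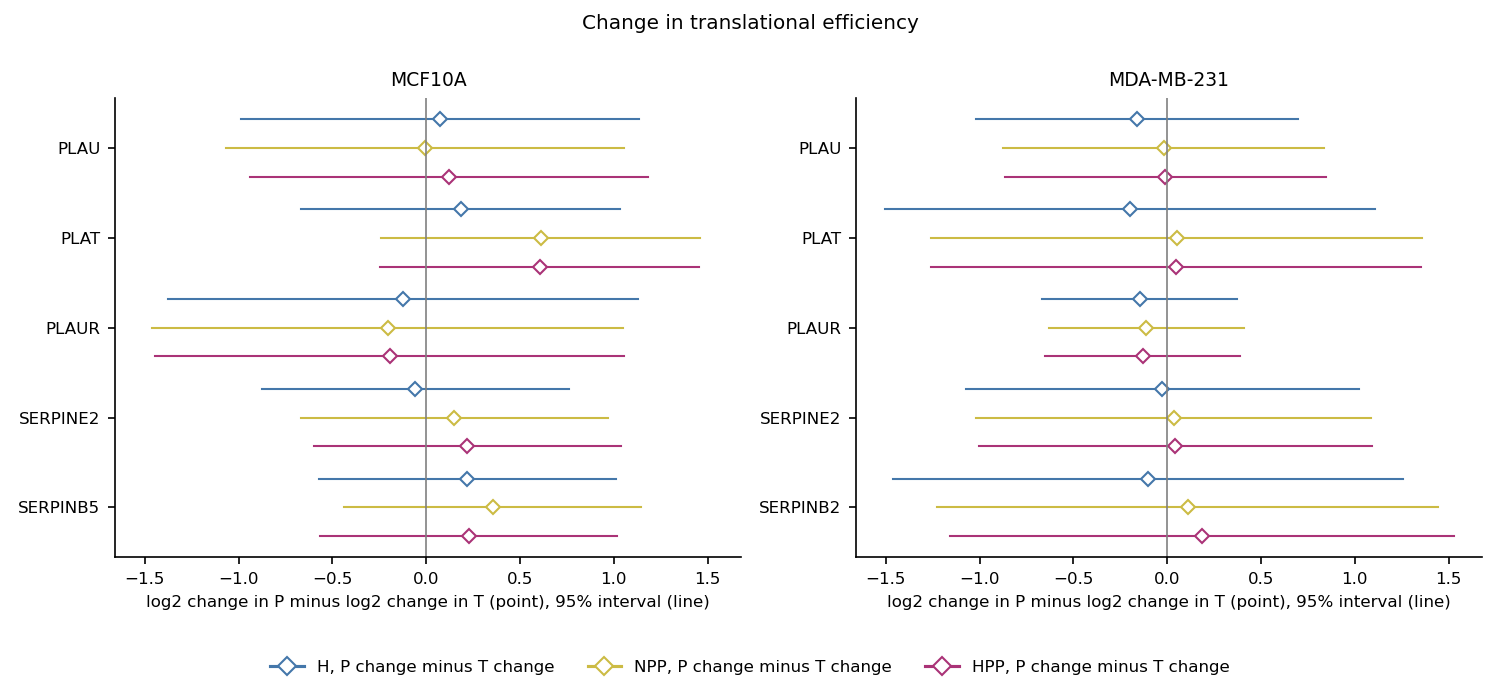
Change in translational efficiency (log2 change in P minus log2 change in T, horizontal axis) with its 95% interval, for H (blue), NPP (yellow) and HPP (magenta) in both lines. Every interval crosses 0.

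Whether a response differed between the lines was tested as an interaction over all 32 libraries. For PLAT the HPP responses differed by 0.19 ± 0.60 in T (MDA-MB-231 minus MCF10A; 95% interval -1.06 to 1.45) and by -0.48 ± 0.60 in P (-1.73 to 0.78). For PLAUR the HPP response was lower in MDA-MB-231 by 1.59 ± 0.47 in T (adjusted p = 0.0645) and by 1.64 ± 0.47 in P (adjusted p = 0.0542), which did not pass at 0.05 but did with DESeq2 (adjusted p = 0.0177 and 0.0202) and with upper-quartile scaling. For SERPINE2 the H response was higher in MDA-MB-231 by 1.99 ± 0.50 in T (adjusted p = 0.123) and by 1.90 ± 0.50 in P (adjusted p = 0.148), which passed with DESeq2 (adjusted p = 0.0325 and 0.0329). SERPINB2 passed in HPP, in T (adjusted p = 0.0115; 1 of 6 members, 3.31% of all genes) and in P (adjusted p = 0.00409; 1 of 6, 3.6%). The call in T was lost without MCF10A N T replicate 1 or replicate 2 (adjusted p up to 0.0861). Its response was a rise from no count in MCF10A and no called change in MDA-MB-231. No member passed for H in T or P (0.266% and 0.329% of all genes, 1 and 2 members at an unadjusted p under 0.05, and 1 and 1 called by DESeq2) or for NPP in T or P (0.056% and 0.126%, 0 and 1 members, and 0 and 0 called by DESeq2).

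Across the 16 libraries of a line the members did not all move together. In MCF10A, PLAU followed SERPINE2 (Pearson r = 0.87 of log2 CPM) and PLAT followed PLAUR (0.84), SERPINB2 (0.89) and SERPINB5 (0.78). In MDA-MB-231, PLAT followed SERPINE2 (0.90), while PLAU against SERPINE2 gave -0.32 and PLAT against PLAUR 0.28. These values are descriptive, since the 16 libraries share 4 conditions, and T and P of 1 culture share their cells.

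The genes most like each member were taken by the smaller of the 2 lines' Pearson correlations over 16 libraries per line. They were OPTN, PFKP and GFPT2 for PLAT (0.91 each), ARHGDIB, TPI1 and S100A11 for PLAUR (0.90, 0.88 and 0.86), TSNARE1, SQRDL and PEX14 for PLAU (0.83, 0.81 and 0.80), BCAR3, TRIM47 and CLDN1 for SERPINE2 (0.82, 0.79 and 0.78), and SP110, TMEM265 and CDH18 for SERPINB2 (0.67, 0.66 and 0.65). For SERPINB5, in MCF10A alone, they were S1PR1, NLRP3 and MATN2 (0.96 each). PFKP and TPI1 are glycolytic enzymes and S100A11 is a calcium-binding protein. With Spearman correlations 2 of the 3 genes were the same for PLAUR, PLAT and SERPINB5 and 1 of 3 for the other members.

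Beyond the 6 members, 46 genes of the pathway and of the clade B serpin family were listed, of which 28 passed the filter in MCF10A and 29 in MDA-MB-231. In HPP 8 of 28 rose and 0 fell in MCF10A T, where 14.9% of all genes passed, and 9 rose and 1 fell in P, where 22.2% did. In MDA-MB-231 7 of 29 rose in T and 9 of 29 in P and 0 fell, beside 13.2% and 19.4% of all genes. Their median log2 change in HPP was 0.77 in MCF10A T, 0.93 in MCF10A P, 0.47 in MDA-MB-231 T and 0.39 in MDA-MB-231 P, beside the all-gene medians given above. In H 1 of 28 rose in each MCF10A fraction, beside 1.54% of all genes in T and 1.49% in P. In MDA-MB-231 H 3 of 29 rose in T and 2 of 29 in P, beside 1.27% and 2.29%, and in NPP none passed with edgeR in either line. Plasminogen itself (PLG) had at most 2 counts per library in MCF10A and 5 in MDA-MB-231.

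Among the other inhibitors, SERPINI1 (neuroserpin), an inhibitor of tPA, rose in HPP in all 4 comparisons. Its total level was 2.15 and 1.92 CPM in N and 7.46 and 13.5 CPM in HPP in MCF10A (2.37 ± 0.35, adjusted p = 0.00127), and 5.86 and 4.14 CPM in N and 10.99 and 8.53 CPM in HPP in MDA-MB-231 (0.90 ± 0.24, adjusted p = 0.0261). SERPINF2 (antiplasmin), the plasmin inhibitor, rose in MCF10A HPP T by 2.53 ± 0.56 (adjusted p = 0.0116), from 2.21 and 3.31 to 11.7 and 20.0 CPM, and in P by 1.75 ± 0.55 (adjusted p = 0.0406).

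Among the receptors that clear activator and inhibitor complexes, VLDLR rose in H and HPP in both lines and fractions. Its level went from 1.10 and 1.27 CPM in N to 22.7 and 25.6 CPM in H in MCF10A T (4.36 ± 0.47, adjusted p = 0.000928), and from 11.03 and 10.4 to 23.4 and 20.6 CPM in MDA-MB-231 T (1.01 ± 0.15, adjusted p = 0.00230). LRP1, which takes up protease complexes, rose in MCF10A HPP in T by 1.96 ± 0.47 (adjusted p = 0.0172) and in P by 2.38 ± 0.48 (adjusted p = 0.00530).

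Of 7 surface receptors for plasminogen or the activators, 6 were tested in each line. ENO1, a glycolytic enzyme that also binds plasminogen, and S100A10, the annexin partner that binds tPA and plasminogen, rose in MDA-MB-231 HPP T, by 0.66 ± 0.13 (adjusted p = 0.00608) and 0.76 ± 0.21 (adjusted p = 0.0280), and both rose in HPP P. In MCF10A none of the 6 passed in HPP T, and PLGRKT, a plasminogen receptor, fell in HPP P by 1.24 ± 0.37 on the log2 scale (adjusted p = 0.0332). Among 6 tested uPAR signalling partners, the fibronectin receptor subunit ITGA5 rose in HPP in both lines, from 561 and 658 to 1382 and 2002 CPM in MCF10A T (1.49 ± 0.35, adjusted p = 0.0151) and from 55.6 and 50.1 to 96.7 and 96.0 CPM in MDA-MB-231 T (0.80 ± 0.19, adjusted p = 0.0120). ITGAV (0.64 ± 0.21, adjusted p = 0.0460) and EGFR (0.74 ± 0.25, adjusted p = 0.0481) rose only narrowly, in MDA-MB-231 HPP P. Of 3 tested proteases that can activate pro-urokinase, the lysosomal protease CTSB rose in HPP in both lines and fractions, by 1.31 ± 0.29 in MCF10A T (adjusted p = 0.0115) and 0.57 ± 0.12 in MDA-MB-231 T (adjusted p = 0.00757), and CTSL rose in MCF10A HPP P by 1.04 ± 0.26 (adjusted p = 0.0152).

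The clade B relatives of SERPINB2 and SERPINB5 were mostly silent. Of 8 relatives that neighbour them on chromosome 18, 2 were tested in each line, and SERPINB3, SERPINB11, SERPINB12 and SERPINB13 had no count in any MCF10A library. SERPINB8 rose in MCF10A HPP P by 1.02 ± 0.31 (adjusted p = 0.0369), from 33.1 and 48.0 to 76.7 and 94.2 CPM. SERPINB1, a relative on chromosome 6 that inhibits neutrophil proteases, rose in MCF10A HPP T by 1.33 ± 0.35 (adjusted p = 0.0260), from 41.4 and 40.7 to 71.8 and 133 CPM.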

How the data were processed

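Expression was measured by RNA-Seq in 32 libraries of total and polysomal RNA. The deposited values were expected counts per gene, which the authors made by STAR alignment and RSEM quantification. The labels list GRCh37 and the study's methods name GRCh38. The expected counts were rounded to whole numbers. Total counts per library ran from 18340916 to 46032327. All 32 value columns matched a sample, and 0 were left out. The 6 members, the pathway lists and the marker lists were chosen with earlier results of these data known.

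Each line was fitted across its 8 groups with edgeR 4.0.16 in R 4.3.3 (TMM scaling, filterByExpr, quasi-likelihood test) on protein-coding genes, and comparisons of the lines used 1 fit over all 32 libraries. P-values were adjusted by Benjamini-Hochberg over all genes tested, and a gene passed at an adjusted p under 0.05. With 2 libraries against 2 an exact permutation test cannot go below 0.333, so none was used. Errors are standard errors of the fit unless named as SD. Folds over groups with no count used a floor of 3 counts over the group, and counting limits and intervals are at the 95% level. From each pathway list at most the 3 genes with the smallest adjusted p among those that passed in a treatment comparison were named. PLG and the SERPINB genes with no count in MCF10A were named after their values were seen. Some genes of the lists are counted but not reported here by name. No 2 replicate libraries agreed within sampling noise (chi-square per degree of freedom from 20.5 in MDA-MB-231 HPP P to 471 in MCF10A NPP T). Positions and transcript lengths came from the GENCODE annotation of GRCh38, and promoter windows from RefSeq. DESeq2 1.42.0, other scalings, filters, thresholds and fits, a replicate block and leaving out each library were the alternatives. The scripts were tested on simulated data.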

Additional observations from a re-analysis of the deposited data

Results flagged for a closer look

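The difference between the lines in the response to a treatment, tested as an interaction over all 32 libraries, passed for 2 of the genes named. For SERPINB2 the fitted difference in HPP (MDA-MB-231 minus MCF10A) was -8.40 in T and -9.24 in P on the log2 scale. Since MCF10A had no normoxic count, these fitted values depend on the prior count and are no bound. For VLDLR it was -3.30 in H T (adjusted p = 0.00139), -3.72 in H P (adjusted p = 0.000257), -2.78 in HPP T (adjusted p = 0.00196) and -3.54 in HPP P (adjusted p = 0.000271), with VLDLR 3.17 ± 0.35 higher in normoxic MDA-MB-231 T. Line and medium cannot be told apart in these differences.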

How the results depend on the processing

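Of the 33 member calls, none changed direction under any alternative or with any library left out, and 14 values no longer passed under an alternative and 48 with a library left out. All 12 normoxic calls between the lines, PLAT in MCF10A HPP T and P and in MDA-MB-231 HPP P, and SERPINB2 in MCF10A HPP P and in the HPP P line difference kept their call in every left-out fit. The number of members called moved by 1 in MCF10A HPP T (4 to 3 with the log2 limit, no filter, all gene classes and only the libraries compared), HPP P (4 to 3 with only the libraries compared, 5 with the replicate block within each fraction) and HPP against H in P (2 to 3 with DESeq2, an adjusted p under 0.10, no filter and the replicate block within each fraction). Larger moves relative to the count were as follows. With DESeq2 it was 1 in MCF10A H T in place of 0, 2 in NPP P in place of 1, 3 in HPP against H in T in place of 0, and in MDA-MB-231 3 in H T in place of 1, 3 in H P in place of 0 and 2 in HPP against H in P in place of 1. For the line differences DESeq2 gave 1 in H T and 1 in H P in place of 0, and 2 in HPP T and 2 in HPP P in place of 1. At an adjusted p under 0.10 the counts were 1 in MCF10A H T, 2 in NPP P, 3 in HPP against H in T, and in MDA-MB-231 2 in H P, 2 in HPP against H in P, and 2 for each HPP line difference. A log2 limit of 1 left 0 in MDA-MB-231 HPP against H in P and 0 in P against T in N. Upper-quartile scaling gave 0 in MDA-MB-231 H T and 2 for each HPP line difference, and RLE size factors gave 0 in MDA-MB-231 H T. With no filter beyond 1 read the counts were 1 in MCF10A HPP against H in T, and in MDA-MB-231 4 in H T, 3 in H P, and 1 and 2 in HPP against H in T and P. With all gene classes they were 0 in MCF10A H P and 0 in MDA-MB-231 H T. Fitting only the libraries compared gave 1 in MCF10A H T, 0 in H P, 0 in NPP P and 0 in HPP against H in P, and in MDA-MB-231 0 in H T, 1 in H P and 2 in HPP against H in P, with 0 for the HPP P line difference.

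The shared replicate numbers were not taken to pair the samples: 11 of 28 correlations of deviations between same-numbered groups passed 0.1 in MCF10A and 19 of 28 in MDA-MB-231, although all 6 within MCF10A T did. The block lowered the adjusted p of PLAT in MCF10A H T to 0.0264, and to 0.0120 as a block within each fraction. In MDA-MB-231 H it lowered that of PLAT to 0.000163 in T and 0.000527 in P. In MDA-MB-231 HPP against H in P it gave 0.0222 for PLAT and 0.0310 for PLAUR. With the replicate block the counts were 1 in MCF10A H T, 2 in HPP against H in T, and in MDA-MB-231 3 in H T, 2 in H P and 3 in HPP against H in P, with 1 for each H line difference and 2 for that in HPP P. With the replicate block within each fraction they were 1 in MCF10A H T, 2 in NPP P, 3 in HPP against H in T, and in MDA-MB-231 3 in H T, 2 in H P, and 1 and 3 in HPP against H in T and P, with 1 for each H and 2 for each HPP line difference.

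Leaving out 1 library gave ranges of 1 to 3 in MCF10A HPP T, 2 to 4 in HPP P, 0 to 0 in H P and NPP P, and 0 to 2 in HPP against H in P. In MDA-MB-231 they were 0 to 2 in H T, 0 to 1 in H P, 0 to 1 in HPP T, 1 to 2 in HPP P, 0 to 1 and 0 to 0 in HPP against H in T and P, and 0 to 0 in P against T in N. For the line differences they were 0 to 1 in H P, 0 to 2 in HPP T and 1 to 2 in HPP P.

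Over all genes DESeq2 called 496 against 202 in MCF10A H T, 549 against 195 in H P and 658 in NPP P, where edgeR called 0.823% of 13124 genes, and in MDA-MB-231 359 against 171 in H T and 680 against 310 in H P. Fitting only the libraries compared called 601 against 202 in MCF10A H T, 6 against 195 in H P, 0 against 491 and 38 against 853 in HPP against H in T and P, 1212 against 1956 in MCF10A HPP T, 1642 against 2910 in HPP P and 44 against 171 in MDA-MB-231 H T. The causes were not tested. With 2 libraries per group, the precision of each value rests on few cultures, and SERPINB2 in MCF10A on at most 130 counts per library.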
